A study of Mus musculus with 6 samples.

Results

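The genes described here are 10 genes of recruited and lipid-associated macrophages, namely *Trem2*, *Gpnmb*, *Cd9*, *Cd63*, *Ctsd*, *Ly6c2*, *Chil3*, *Lgals3*, *Adgre1* and *Csf1r*. They were taken by name from the 49671 genes of the liver count table, and all 10 were among the 16089 genes with enough counts to test. The libraries were made from whole liver of 6 male C57BL/6J mice, 3 SHMT2 fl/fl controls, in which the *Shmt2* gene is floxed, and 3 SHMT2 HKO mice, in which Cre under the Albumin promoter deletes the floxed gene. All 6 mice ate the AMLN diet (high in fat, cholesterol and fructose) for 18 weeks, starting at 4 weeks of age, so no liver on a control diet enters these comparisons. The Albumin promoter is active in hepatocytes, so macrophages of SHMT2 HKO mice are not the cells in which *Shmt2* is deleted, and the comparison asks how a change in hepatocytes is met by macrophage genes of the same liver. *Shmt2* itself checked the labels. It stood at 94.5, 109 and 93.8 CPM (the count per 1e+06 counts of the library, scaled by edgeR's TMM method) in SHMT2 fl/fl mice 1, 2 and 3 and at 24.9, 28.2 and 19.3 CPM in SHMT2 HKO mice 1, 2 and 3, a log2 fold change of -2.04 (SE 0.16, adjusted p = 0.000639).

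In fatty liver disease, blood monocytes enter the liver and mature into macrophages that gather around lipid-laden hepatocytes and areas of scarring. These lipid-associated macrophages carry the lipid receptor TREM2 together with GPNMB, the tetraspanins CD9 and CD63, galectin-3 and lysosomal proteases, and they differ from Kupffer cells, the resident macrophages of the sinusoids, which carry CLEC4F, TIMD4 and VSIG4. Ly6C and the chitinase-like protein CHIL3 mark monocytes that have recently left the blood, while F4/80 (*Adgre1*) and the CSF1 receptor are shared by most macrophages. Several of the 10 genes are not private to macrophages, since other liver cells also use *Ctsd*, *Cd9*, *Cd63* and *Lgals3*, and in whole liver fewer cells of a type and less RNA per cell cannot be told apart.

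Promoter sequences are shown for *Trem2* and *Gpnmb*, which hold close variants of a short stretch near the start, and for *Ctsd*, whose level differed least between genotypes on the fitted scale. Each runs from 150 bases before to 30 bases after the annotated start in RefSeq, build GRCm38.p6. Capitals mark TGANTCA in *Trem2* (chr17:48346251-48346430, plus strand) and *Gpnmb* (chr6:49036368-49036547, plus strand), and TCACGTGA, the letters bound by lysosomal regulators of the MiT/TFE family, in *Ctsd* (chr7:142387798-142387977, minus strand).
Trem2: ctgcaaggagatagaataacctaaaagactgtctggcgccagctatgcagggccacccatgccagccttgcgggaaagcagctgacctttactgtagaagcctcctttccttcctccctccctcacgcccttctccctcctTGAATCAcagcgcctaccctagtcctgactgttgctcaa
Gpnmb: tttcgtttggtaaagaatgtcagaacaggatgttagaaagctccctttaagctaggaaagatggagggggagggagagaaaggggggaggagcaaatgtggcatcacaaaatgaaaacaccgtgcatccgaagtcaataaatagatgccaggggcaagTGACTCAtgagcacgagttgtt
Ctsd: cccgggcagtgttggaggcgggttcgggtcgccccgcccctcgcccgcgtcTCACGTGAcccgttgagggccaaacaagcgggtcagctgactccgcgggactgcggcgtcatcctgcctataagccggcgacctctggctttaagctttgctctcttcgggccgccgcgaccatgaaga
The search covered both strands of 300 bases, from 250 before to 50 after the start, in 32851 mouse promoters, with 8 of the 10 genes matched. TGANTCA was found in 7.81% of all promoters, and in those of *Trem2* and *Gpnmb* among the 8. In *Gpnmb* it reads TGACTCA, the letters bound by AP-1 factors, and in *Trem2* it reads TGAATCA, which is not that site. TCACGTGA was found in 0.974% of all promoters and among the 8 in *Ctsd* alone, and every TCACGTGA also holds the shorter CACGTG (7.15% of all promoters). GAGGAAGT, the letters bound by the myeloid factor PU.1, was in 3.20% of all promoters and among the 8 in *Ly6c2*. GGGCGG was in 35.7% of all promoters and in those of *Cd9*, *Ctsd* and *Lgals3*. These matches describe letters in the windows and not binding.

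Of the 10 genes, 5 passed an adjusted p of 0.05 and were lower in SHMT2 HKO livers (*Trem2*, *Cd9*, *Cd63*, *Ly6c2* and *Csf1r*), while 0 were higher. Over all 16089 tested genes, 29.0% were called by the same test, 16.5% lower and 12.5% higher. The median log2 fold change of the 10 was -0.95, against 0.0273 over all tested genes. It moved to -1.70 without SHMT2 HKO mouse 3 and to -0.66 without SHMT2 HKO mouse 1, and was -1.32 with limma-voom and -1.33 with the replicate number as a block. For 6 of the 10, all SHMT2 HKO mice lay below all SHMT2 fl/fl mice, a pattern that 25.0% of all tested genes had. The scaling enters these shares: with TMM, 2012 genes were higher and 2651 lower, and without it 538 were higher and 4919 lower, with the median gene moved by -0.42. The fitted log2 fold change of each of the 10 genes stayed below 0 in every setting in which it was tested. It came close to 0 for *Ctsd* (-0.00136 without SHMT2 HKO mouse 1) and *Chil3* (-0.0189 without SHMT2 HKO mouse 2), so the sign alone shows no fall for these. *Chil3* was not tested with a minimum of 10 counts in every library.

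**Figure D1:**
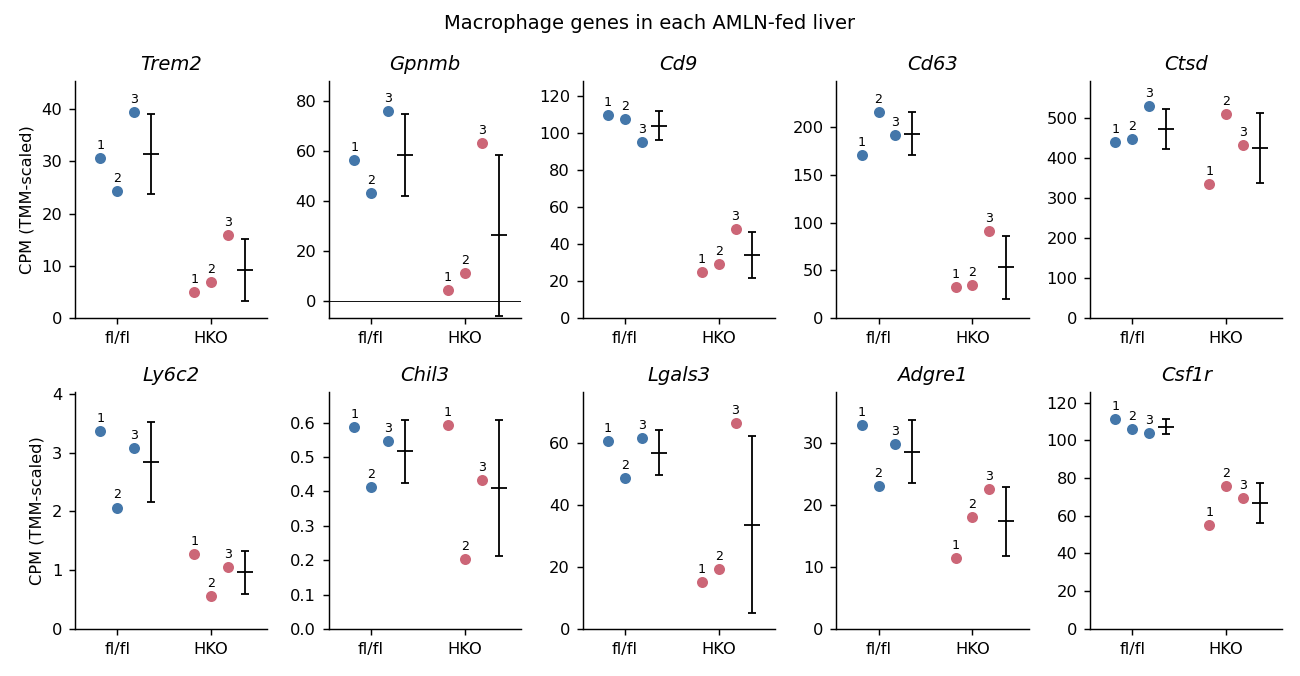
TMM-scaled CPM (vertical axes, linear, a separate scale for each gene) of the 10 macrophage genes in each liver, with SHMT2 fl/fl mice in blue, SHMT2 HKO mice in red and the mouse number above each point. The horizontal dash and bar give the mean and SD of 3 mice; Gpnmb and Lgals3 of SHMT2 HKO mouse 3 lie within or above the SHMT2 fl/fl range, while the 5 called genes are separated by genotype.

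TREM2 is a surface receptor for lipids and lipoproteins that signals through the adaptor TYROBP. *Trem2* (ENSMUSG00000023992, chromosome 17, 48346401 to 48354147) was at 30.5, 24.3 and 39.4 CPM in SHMT2 fl/fl mice 1, 2 and 3 and at 4.92, 6.88 and 16.0 CPM in SHMT2 HKO mice 1, 2 and 3. The genotypes did not overlap, and SHMT2 HKO mouse 3 was the nearest to the controls. The mean fell from 31.4 ± 7.61 CPM (SD, n = 3) to 9.25 ± 5.89 CPM (SD, n = 3), and the log2 fold change was -1.76 (SE 0.42, adjusted p = 0.0192). This call was lost without SHMT2 fl/fl mouse 1 (adjusted p = 0.0578), SHMT2 fl/fl mouse 3 (0.0665) or SHMT2 HKO mouse 2 (0.0622), and when genes of low count were kept (0.131). With SHMT2 HKO mouse 3 left out, *Trem2* had a log2 fold change of -2.44.

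Among 10 genes of TREM2 signalling and its ligands, 5 were lower, 0 were higher and the median log2 fold change was -0.64. The count was 3 when SHMT2 fl/fl mouse 1, 2 or 3 or SHMT2 HKO mouse 1 or 2 was left out. *Tyrobp*, the adaptor of TREM2, was at 29.6, 25.1 and 37.9 CPM in SHMT2 fl/fl mice and at 15.2, 14.7 and 17.2 CPM in SHMT2 HKO mice. It fell by 0.97 on the log2 scale (SE 0.17, adjusted p = 0.00506), and unlike *Trem2* its values in the 3 SHMT2 HKO mice lay close together. The largest falls of the list were in *Hcst*, a related adaptor (log2 fold change -1.59, adjusted p = 0.0328), *Inpp5d*, a phosphatase that restrains signalling (-1.23, adjusted p = 0.0123), and *Plcg2*, the phospholipase downstream of the receptor (-1.13, adjusted p = 0.00448). *Apoe*, which encodes a lipoprotein ligand of TREM2 and is made mainly by hepatocytes, was the most abundant gene of the list. It was at 25323, 28047 and 29769 CPM in SHMT2 fl/fl mice and at 51119.6, 54574 and 33093 CPM in SHMT2 HKO mice (log2 fold change 0.74, SE 0.26, adjusted p = 0.0622). The separation of *Apoe* rested on the scaling, since without TMM SHMT2 HKO mouse 3 was at 32561 CPM and SHMT2 fl/fl mouse 3 at 33497 CPM, with a log2 fold change of 0.29 (adjusted p = 0.177) without TMM and -0.0965 (0.838) with ERCC scaling. *Apoe* passed the test with DESeq2 (adjusted p = 0.00188), when genes of low count were kept (0.0455) and with SHMT2 HKO mouse 3 left out (0.0075).

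GPNMB is a transmembrane glycoprotein of lysosome-rich macrophages. *Gpnmb* (chromosome 6, 49036546 to 49070929) was at 56.4, 43.1 and 75.8 CPM in SHMT2 fl/fl mice and at 4.49, 11.0 and 63.3 CPM in SHMT2 HKO mice. SHMT2 HKO mice 1 and 2 averaged 13.3% of the control mean and mouse 3 stood at 108% of it, so the genotypes overlapped. The log2 fold change was -1.15 with an SE of 0.87 and did not pass the test (adjusted p = 0.369). Without SHMT2 HKO mouse 3 it was -2.94 (SE 0.47, adjusted p = 0.00715), without mouse 1 of that group -0.64 (0.57) and without mouse 2 -0.78 (0.578). With limma-voom it was -1.90 (adjusted p = 0.0873) and with the replicate number as a block -1.89 (0.0723).

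Galectin-3, a secreted lectin that binds sugars on damaged lysosomes and on the cell surface, showed the same division. *Lgals3* (chromosome 14, 47367751 to 47386160) was at 60.7, 48.7 and 61.7 CPM in SHMT2 fl/fl mice and at 15.3, 19.2 and 66.7 CPM in SHMT2 HKO mice. SHMT2 HKO mouse 3 was the highest of all 6 livers, at 117% of the control mean, while SHMT2 HKO mice 1 and 2 averaged 30.2% of it. The log2 fold change of -0.75 (SE 0.53, adjusted p = 0.325) became -1.75 (SE 0.17, adjusted p = 0.000597) without that mouse, but -0.40 (0.577) without SHMT2 HKO mouse 1 and -0.47 (0.579) without SHMT2 HKO mouse 2. Over the 6 livers the log2 CPM of *Gpnmb* and *Lgals3* had a Pearson r of 0.986, given as a description of points that share libraries and depth.

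CD9 and CD63 are tetraspanins, membrane proteins of the cell surface, of late endosomes and of secreted vesicles. *Cd9* (chromosome 6, 125460266 to 125494791) was at 109, 108 and 95.0 CPM in SHMT2 fl/fl mice and at 24.8, 29.5 and 48.1 CPM in SHMT2 HKO mice. It fell by 1.61 on the log2 scale (SE 0.24, adjusted p = 0.00277), and the call held with each mouse left out in turn. Its exons overlap *Gm26728* on the opposite strand by 218 bases. *Cd63* (chromosome 10, 128900989 to 128912822) was at 171, 216 and 192 CPM in SHMT2 fl/fl mice and at 32.9, 35.2 and 91.5 CPM in SHMT2 HKO mice. With ERCC scaling its log2 fold change was -2.27, behind the -2.31 of *Ly6c2*. With TMM and all 6 mice its log2 fold change, -1.86 (SE 0.39, adjusted p = 0.0115), was the most negative of the 10. Without SHMT2 HKO mouse 3 it was -2.52, behind the -2.94 of *Gpnmb*, and the call was lost only when genes of low count were kept (adjusted p = 0.0892). Both genes were highest in mouse 3 among the SHMT2 HKO livers, and both stayed below every control there. Of the 50-base stretches of *Cd63* transcripts, 11.0% also occur in other genes, chiefly its pseudogene *Cd63-ps* (6 to 25 counts per library). *Cd81*, a related tetraspanin found in many liver cells, had a log2 fold change of 0.41 with TMM (SE 0.13, adjusted p = 0.0425), but of -0.00897 without TMM (adjusted p = 0.965) and -0.27 with ERCC scaling (adjusted p = 0.641). Its call was also lost with upper-quartile scaling and with any mouse but SHMT2 HKO mouse 1 left out.

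Cathepsin D, an aspartic protease of lysosomes that hepatocytes also contain, did not follow the tetraspanins. *Ctsd* (chromosome 7, 142375911 to 142388038) was at 440, 447 and 528 CPM in SHMT2 fl/fl mice and at 335, 509 and 431 CPM in SHMT2 HKO mice. The genotypes overlapped, and the log2 fold change was -0.15 (SE 0.19, adjusted p = 0.584). Without TMM, where the median gene also moved down, it was -0.57 (adjusted p = 0.0429). Of its 50-base stretches 32.4% also lie in *Gm49369*, an overlapping gene model on the same strand that held 0 or 1 counts per library. Of 18 other lysosomal and MiT/TFE genes, 1 was lower, 1 was higher and the median log2 fold change was 0.088. The higher gene was *Lamp2*, a lysosomal membrane protein (log2 fold change 0.60, adjusted p = 0.0168). *Psap*, which encodes the saposins and was the most abundant of the list, was at -0.35 (log2, adjusted p = 0.228). Without TMM, 6 of the 18 were lower and 0 higher, and *Lamp2* was at 0.17 (adjusted p = 0.332), against -0.14 (0.807) with ERCC scaling. The *Lamp2* call was also lost without SHMT2 fl/fl mouse 2 (adjusted p = 0.0859), SHMT2 fl/fl mouse 3 (0.0786) or SHMT2 HKO mouse 2 (0.052) and with the replicate number as a block (0.0577).

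Of a wider list of 15 lipid-associated macrophage genes 5 were lower and 2 higher, with a median log2 fold change of -0.50. The higher calls depended on the scaling, with 8 lower and 1 higher without TMM (median -0.90) and 5 lower and 0 higher with ERCC scaling (median -1.03). *Spp1*, which encodes the secreted matrix protein osteopontin, was at 875, 943 and 791 CPM in SHMT2 fl/fl mice and at 104, 105 and 215 CPM in SHMT2 HKO mice (log2 fold change -2.62, SE 0.30, adjusted p = 0.00134). *Itgax*, which encodes CD11c, fell by 1.68 (SE 0.48, adjusted p = 0.0369), and *Lpl*, lipoprotein lipase, by 1.65 (SE 0.23, adjusted p = 0.00223), both on the log2 scale. *Capg* and *Cd68* were the other lower genes. Which cells account for the lower genes of this list, *Spp1* included, was not tested in whole liver. All 5 biliary markers were lower in the same livers. The higher genes encode proteins of intracellular fat that hepatocytes also make, and their cell source was not tested either. *Fabp5*, a fatty acid binding protein, had a log2 fold change of 1.38 (SE 0.30, adjusted p = 0.0134), and *Plin2*, the lipid droplet coat protein, of 0.83 (SE 0.20, adjusted p = 0.0178). Without TMM *Fabp5* was at 0.91 (adjusted p = 0.0282) and *Plin2* at 0.42 (0.162), and with ERCC scaling they were at 0.43 (0.545) and 0.15 (0.79). *Ctsb*, a lysosomal protease and the most abundant of the list, was at 0.0206 (adjusted p = 0.938). Leaving out SHMT2 HKO mouse 3 gave 8 lower and 2 higher, and leaving out SHMT2 fl/fl mouse 2 or 3 gave 4 lower and 0 higher. The higher count was 4 without SHMT2 HKO mouse 1 and 1 without SHMT2 HKO mouse 2.

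Ly6C is a surface protein of classical monocytes, and its gene has a near-identical neighbour. The coding sequences of *Ly6c2* and *Ly6c1* are identical at 384 of 393 positions (97.7%), and the opening 90 bases of each are shown because reads from this stretch can be told apart only at the 6 bases in capitals.
Ly6c2: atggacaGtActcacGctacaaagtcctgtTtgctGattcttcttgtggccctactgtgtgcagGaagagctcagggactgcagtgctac
Ly6c1: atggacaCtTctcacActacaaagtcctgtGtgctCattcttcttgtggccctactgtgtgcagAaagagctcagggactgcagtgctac
*Ly6c2* (chromosome 15, 75108158 to 75111970) was at 3.37, 2.07 and 3.08 CPM in SHMT2 fl/fl mice and at 1.27, 0.556 and 1.06 CPM in SHMT2 HKO mice, from 55 to 138 counts per library in the former and 11 to 30 in the latter. The genotypes did not overlap, and here mouse 1, not mouse 3, was the highest SHMT2 HKO liver. The log2 fold change was -1.55 (SE 0.37, adjusted p = 0.0164), and the call was lost without SHMT2 fl/fl mouse 1 (adjusted p = 0.0682) or mouse 3 (0.0668). *Ly6c1*, which endothelial cells also express, was at 8.24, 14.9 and 12.8 CPM in SHMT2 fl/fl mice and at 1.82, 0.455 and 0.668 CPM in SHMT2 HKO mice (log2 fold change -3.58, SE 0.47, adjusted p = 0.00211). In total 13.9% of the 50-base stretches of *Ly6c2* transcripts lie in *Ly6c1*, so how reads were divided between this pair is uncertain, and its part in the fall of *Ly6c2* was not tested.

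CHIL3 is a secreted chitinase-like protein of monocytes and alternatively activated macrophages. *Chil3* (chromosome 3, 106147554 to 106167564) was close to the limit of detection, at 0.586, 0.413 and 0.547 CPM in SHMT2 fl/fl mice and at 0.594, 0.202 and 0.433 CPM in SHMT2 HKO mice. These values rest on 24, 11 and 21 counts against 14, 4 and 11, where 3 counts, taken as the floor, amount to 0.0733 to 0.152 CPM. No difference was detectable at this depth (log2 fold change -0.32, SE 0.47, adjusted p = 0.639). Its paralog *Chil4*, which holds 16.9% of its 50-base stretches, was at 0 counts in all 6 libraries. Of 6 genes of alternative activation 5 could be tested, and 3 were lower and 0 higher. The lower genes were the lectins *Mgl2* (log2 fold change -1.92, adjusted p = 0.0256) and *Clec10a* (-1.37, adjusted p = 0.0497) and the interleukin-4 receptor chain *Il4ra* (-0.35, adjusted p = 0.0362). No gene of the list was called without SHMT2 fl/fl mouse 2, SHMT2 fl/fl mouse 3 or SHMT2 HKO mouse 2, and 1 was called without SHMT2 fl/fl mouse 1 or SHMT2 HKO mouse 1.

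Genes of monocyte recruitment and identity were lower in 6 of 11 cases and higher in 0, with a median log2 fold change of -1.03. *Cx3cl1*, the membrane-bound chemokine fractalkine, fell from 26.6, 31.5 and 33.9 CPM in SHMT2 fl/fl mice to 5.26, 4.05 and 4.72 CPM in SHMT2 HKO mice (log2 fold change -2.71, SE 0.16, adjusted p = 0.000532). Its receptor *Cx3cr1* fell from 41.9, 33.6 and 39.9 CPM to 8.06, 9.46 and 12.8 CPM (-1.93, SE 0.19, adjusted p = 0.000911). This ligand and its receptor thus fell together, and for both the SHMT2 HKO mice lay in a narrow range. *Lyz2*, the lysozyme of myeloid cells and the most abundant of the list, had a log2 fold change of -1.71 (SE 0.26, adjusted p = 0.0032). The chemokine receptor *Ccr2*, by which classical monocytes leave the bone marrow, was at 14.0, 13.9 and 15.8 CPM in SHMT2 fl/fl mice and at 3.27, 6.37 and 12.3 CPM in SHMT2 HKO mice. Its genotypes did not overlap, but the difference did not pass the test (log2 fold change -0.99, SE 0.40, adjusted p = 0.1). The chemokines *Ccl2* (-0.27, adjusted p = 0.51) and *Ccl7* (-0.45, adjusted p = 0.55) were not called, and their genotypes overlapped.

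F4/80 is an adhesion receptor of mouse macrophages. *Adgre1* (chromosome 17, 57358691 to 57483527) was at 32.9, 23.0 and 29.8 CPM in SHMT2 fl/fl mice and at 11.4, 18.0 and 22.6 CPM in SHMT2 HKO mice. The groups were separated by a narrow gap, between SHMT2 HKO mouse 3 and SHMT2 fl/fl mouse 2. The log2 fold change was -0.72 (SE 0.25, adjusted p = 0.0588), just outside the threshold. It passed with DESeq2 (adjusted p = 0.0317), with limma-voom (0.0472), without TMM (0.0241), with upper-quartile scaling (0.0401), with a minimum of 10 counts in every library (0.0473) and without SHMT2 HKO mouse 3 (0.0221).

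The CSF1 receptor is the growth factor receptor on which macrophages depend. *Csf1r* (chromosome 18) was at 112, 106 and 104 CPM in SHMT2 fl/fl mice and at 54.9, 75.5 and 69.5 CPM in SHMT2 HKO mice. It had the smallest spread among controls relative to its mean, 107 ± 3.87 CPM (SD, n = 3), and fell by 0.69 on the log2 scale (SE 0.14, adjusted p = 0.00931). The call held in each of the 15 alternative settings. Its exons overlap those of *Hmgxb3* on the opposite strand by 873 bases, and the strand setting used in counting is not given in the sources used here.

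Of 7 ligands of this receptor and macrophage transcription factors, 4 were lower and 0 higher, with a median log2 fold change of -0.72. *Csf1*, the ligand, was at 42.0, 42.7 and 40.1 CPM in SHMT2 fl/fl mice and at 17.6, 25.4 and 24.8 CPM in SHMT2 HKO mice (log2 fold change -0.88, SE 0.15, adjusted p = 0.00516). *Il34*, the other ligand, had a log2 fold change of -0.53 (SE 0.27, adjusted p = 0.176). *Runx1* (-1.20, adjusted p = 0.0118), *Irf8* (-1.17, adjusted p = 0.00111) and *Spi1*, which encodes PU.1 (-0.72, adjusted p = 0.021), were the lower transcription factors. The receptor, its ligand CSF1 and these factors of myeloid commitment were therefore lower.

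**Figure D2:**
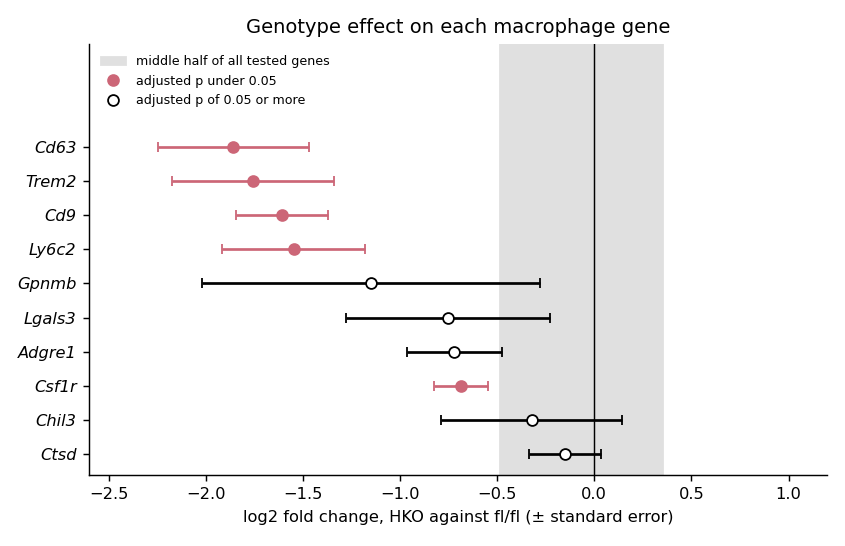
Log2 fold change of each of the 10 macrophage genes, SHMT2 HKO against SHMT2 fl/fl (horizontal axis), with its standard error, filled where the adjusted p is under 0.05, over a grey band that spans the lower to the upper quartile of all tested genes. The values run from -1.86 for Cd63 to -0.15 for Ctsd, and Gpnmb has the longest bar, with an SE of 0.87.

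Levels can be set between genes only per length of transcript, as RPKM (CPM per kilobase of annotated exon). In SHMT2 fl/fl livers *Ctsd* led with 200.6 ± 20.8 RPKM (SD, n = 3), followed by *Cd63* (52.4 ± 6.08), *Cd9* (50.9 ± 3.86), *Lgals3* (30.7 ± 3.88), *Csf1r* (18.6 ± 0.669), *Gpnmb* (8.97 ± 2.52), *Adgre1* (8.82 ± 1.57), *Trem2* (6.35 ± 1.54), *Ly6c2* (1.04 ± 0.25) and *Chil3* (0.316 ± 0.0556). The neighbours *Cd63* and *Cd9* differed by less than their spread, as did *Gpnmb* and *Adgre1*. In SHMT2 HKO livers *Ctsd* again led (181 ± 37.1 RPKM, SD, n = 3), and *Lgals3* (18.2 ± 15.4), *Cd9* (16.7 ± 6.04), *Cd63* (14.4 ± 9.01) and *Csf1r* (11.5 ± 1.84) came next with spreads that overlapped. Below these stood *Adgre1* (5.36 ± 1.73), *Gpnmb* (4.03 ± 4.94), *Trem2* (1.87 ± 1.19), *Ly6c2* (0.352 ± 0.134) and *Chil3* (0.251 ± 0.12), and neighbours had overlapping spreads except *Csf1r* and *Adgre1*, and *Trem2* and *Ly6c2*.

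A ratio to *Csf1r* within each liver asks whether a gene changed more than a general macrophage gene did. The log2 ratio of *Cd9* averaged -0.0459 ± 0.0772 (SD, n = 3) in controls and -1.01 ± 0.43 (SD, n = 3) after deletion, a difference of -0.97 without overlap. For *Cd63* the difference was -1.32, also without overlap, and for *Ctsd* it was 0.53 in the other direction, with every SHMT2 HKO liver above every control. For each of these, the exact permutation test (two-sided) gave p = 0.1, the smallest that 3 mice against 3 allow, and 0.3 after Benjamini-Hochberg adjustment over 9 ratios, so no ratio could pass. *Trem2* relative to *Csf1r* differed by -1.22 (exact p = 0.2, adjusted 0.36), with SHMT2 HKO mouse 3 at -2.12 just above SHMT2 fl/fl mouse 2 at -2.13. The other differences were -1.26 for *Gpnmb*, -0.91 for *Ly6c2*, -0.37 for *Lgals3*, 0.25 for *Chil3* and -0.06 for *Adgre1* (exact p from 0.2 to 0.9), and in all of them the genotypes overlapped. Single mice moved several of these. *Gpnmb* was at -2.28 without SHMT2 HKO mouse 3 and -0.54 without SHMT2 HKO mouse 1, *Lgals3* at -0.99 without SHMT2 HKO mouse 3 and -0.0345 without SHMT2 HKO mouse 2, and *Ly6c2* at -1.29 without SHMT2 HKO mouse 1 and -0.46 without SHMT2 HKO mouse 2. Leaving out single mice turned the sign for *Chil3* and *Adgre1*.

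SHMT2 HKO mouse 3 was the highest of its group for 6 of the 10 genes (60.0%), as it was for 61.0% of the 2651 genes called lower and for 36.5% of all tested genes. Its position was therefore not particular to the macrophage genes. On the leading principal component of all tested genes, which held 64.8% of the variance, this liver lay at 35.0, the other SHMT2 HKO livers at 66.5 and 68.8 and the controls between -65.5 and -51.0. Its *Shmt2* level, 19.3 CPM, was the lowest of the group. Without this mouse 8 of the 10 genes were called lower, beside 3076 of all 16774 genes tested in that setting. Without SHMT2 fl/fl mouse 1 or mouse 3 the number was 3. All genes called lower there were 1763 of 16262 without mouse 1 and 1621 of 16336 without mouse 3. The number among the 10 thus moved in the same direction as the number over all genes. *Mmp12*, a protease of lesional macrophages, was divided like *Gpnmb*, at 28.0, 20.0 and 26.1 CPM in SHMT2 fl/fl mice and at 4.71, 7.64 and 32.4 CPM in SHMT2 HKO mice (adjusted p = 0.444). It was picked after its values were seen.

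**Figure D3:**
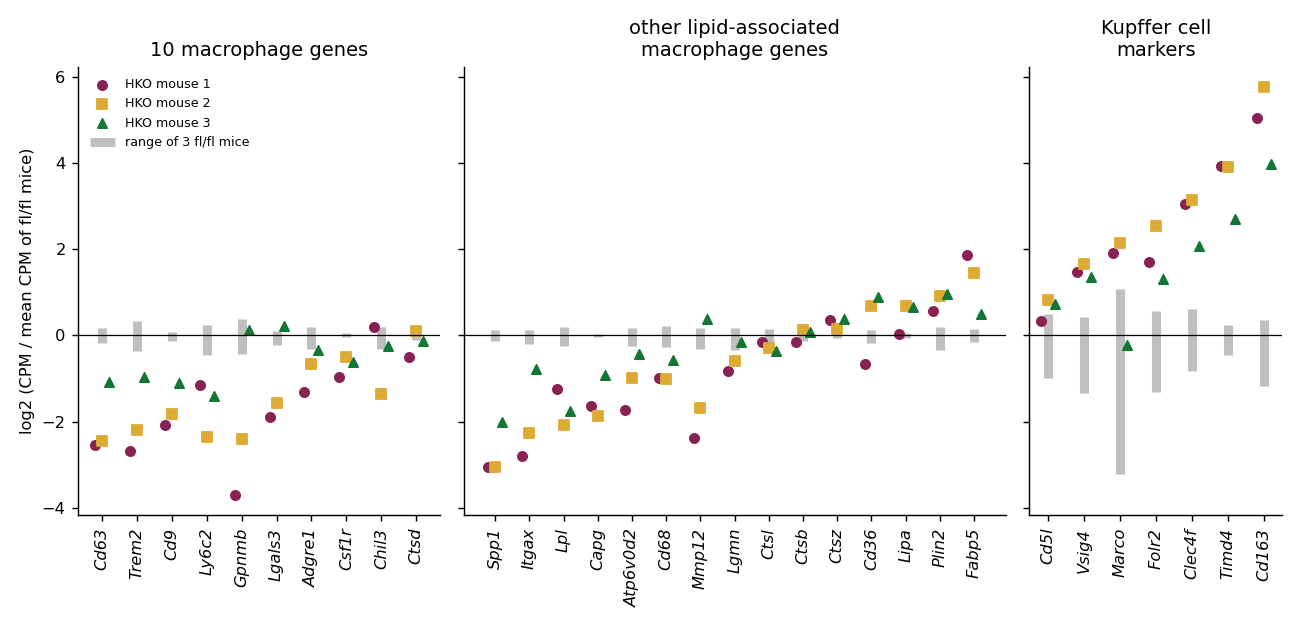
Log2 of each SHMT2 HKO liver's CPM over the mean CPM of the SHMT2 fl/fl livers (vertical axis) for the 10 macrophage genes, other lipid-associated macrophage genes and Kupffer cell markers, with 1 symbol per mouse and grey bars for the range of the 3 SHMT2 fl/fl livers. SHMT2 HKO mouse 3 (green triangles) stands above mice 1 and 2 for Cd63, Trem2, Cd9, Gpnmb, Lgals3 and Adgre1, and the Kupffer markers Clec4f, Timd4 and Cd163 lie above the grey bars in every SHMT2 HKO liver.

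Markers of other cells moved as well, and their part in the values above was not tested. The macrophage and leukocyte genes *Adgre1*, *Csf1r*, *Cd68* and *Ptprc* were detected in all 6 whole-liver libraries, which does not tell which macrophages were present. Of 11 leukocyte and myeloid genes, 9 were lower and 0 higher (median log2 fold change -1.19), and their summed level was 548, 463 and 522 CPM in SHMT2 fl/fl mice and 257, 296 and 353 CPM in SHMT2 HKO mice. *Cd14*, an endotoxin co-receptor (log2 fold change -1.79), *Coro1a* (-1.37) and the Fc receptor *Fcgr1* (-1.33) fell most, while *Lcp1*, the most abundant, was at -0.0359 (adjusted p = 0.856). The count of lower genes was 6 without SHMT2 fl/fl mouse 1 or SHMT2 HKO mouse 2.

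Of the 7 Kupffer cell markers, 5 were called higher and 0 lower, with a median log2 fold change of 1.92. This median was 1.02 with ERCC scaling, and with single mice left out it lay between 1.5 (without SHMT2 HKO mouse 2) and 2.68 (without SHMT2 fl/fl mouse 1). Their summed level was 170, 59.1 and 128 CPM in SHMT2 fl/fl mice and 300, 374 and 254 CPM in SHMT2 HKO mice. The haptoglobin-haemoglobin receptor *Cd163* (log2 fold change 5.12, SE 0.57, adjusted p = 0.00132), the phosphatidylserine receptor *Timd4* (3.57, SE 0.43, adjusted p = 0.00149) and the lectin *Clec4f* (2.83, SE 0.42, adjusted p = 0.00391) rose most. *Cd5l*, the most abundant, was at 0.64 (adjusted p = 0.194) and *Marco* at 1.55 (SE 0.91, adjusted p = 0.245). Neither passed the test, and the genotypes overlapped for both. Without SHMT2 fl/fl mouse 3 or SHMT2 HKO mouse 2, 3 of the 7 were called, as with ERCC scaling or when genes of low count were kept. *Cd163*, *Timd4* and *Clec4f* were called higher in all of these. The called markers of resident macrophages and the called genes of the 10 therefore went in opposite directions in the same 6 livers.

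All 5 biliary markers were lower, with summed levels of 130, 238 and 161 CPM in SHMT2 fl/fl mice and 23.6, 22.8 and 30.1 CPM in SHMT2 HKO mice and *Epcam* the most abundant. Here SHMT2 HKO mouse 3 stood with its group, unlike for *Lgals3* and *Gpnmb*. Of 8 stellate cell and fibroblast markers 4 were lower and 1 higher, with *Col3a1* the most abundant. Their sums were 1256, 1216 and 1299 CPM in SHMT2 fl/fl mice and 328, 495 and 817 CPM in SHMT2 HKO mice, so that mouse 3 was the nearest to the controls. Without SHMT2 fl/fl mouse 2, SHMT2 fl/fl mouse 3 or SHMT2 HKO mouse 2, 2 of these markers were lower. The summed level of 7 dendritic cell markers (4 lower, 0 higher, *Zbtb46* the most abundant) was 30.3, 31.0 and 26.6 CPM against 14.5, 15.3 and 21.8 CPM, and the lower count was 1 without SHMT2 fl/fl mouse 2, SHMT2 fl/fl mouse 3 or SHMT2 HKO mouse 2 and 2 without SHMT2 fl/fl mouse 1. For 6 T and NK cell markers (4 lower, 0 higher, *Cd8a* the most abundant) it was 19.6, 16.2 and 18.0 CPM against 6.91, 3.84 and 4.64 CPM.
Of 5 B and plasma cell markers, 1 was lower, with sums of 9.90, 18.2 and 10.7 CPM against 3.94, 5.92 and 5.15 CPM and *Jchain* the most abundant. Of 8 neutrophil markers 4 could be tested and 1, *Csf3r*, was lower, with sums of 12.0, 7.82 and 10.2 CPM against 7.76, 4.50 and 8.22 CPM. Of 7 endothelial markers 1 was lower (*Ly6c1*) and 2 were higher, and of 8 hepatocyte markers 3 were higher and 0 lower. Without TMM, 1 hepatocyte marker was higher and 1 lower, 1 endothelial marker was higher and 3 lower, and 6 stellate cell and fibroblast markers were lower and 0 higher. Of the B and plasma cell markers 3 were lower without TMM and 3 with ERCC scaling. ERCC scaling also left 1 hepatocyte marker higher and 1 lower, 0 endothelial markers higher, 3 stellate cell and fibroblast markers lower and 0 higher, and 0 neutrophil markers called. With TMM, the hepatocyte count was 5 without SHMT2 HKO mouse 3 and 1 without SHMT2 HKO mouse 2 or any SHMT2 fl/fl mouse, the endothelial higher count was 4 without SHMT2 HKO mouse 1, the B cell count was 2 without SHMT2 HKO mouse 2, and *Csf3r* was not called without SHMT2 HKO mouse 2 or any SHMT2 fl/fl mouse. Hepatocyte sums were 52342, 54461 and 64242 CPM in SHMT2 fl/fl mice and 96026, 100086 and 69200 CPM in SHMT2 HKO mice, with *Alb* the most abundant, and endothelial sums were 194, 175 and 184 CPM against 229, 263 and 266 CPM, with *Stab2* the most abundant.

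**Figure D4:**
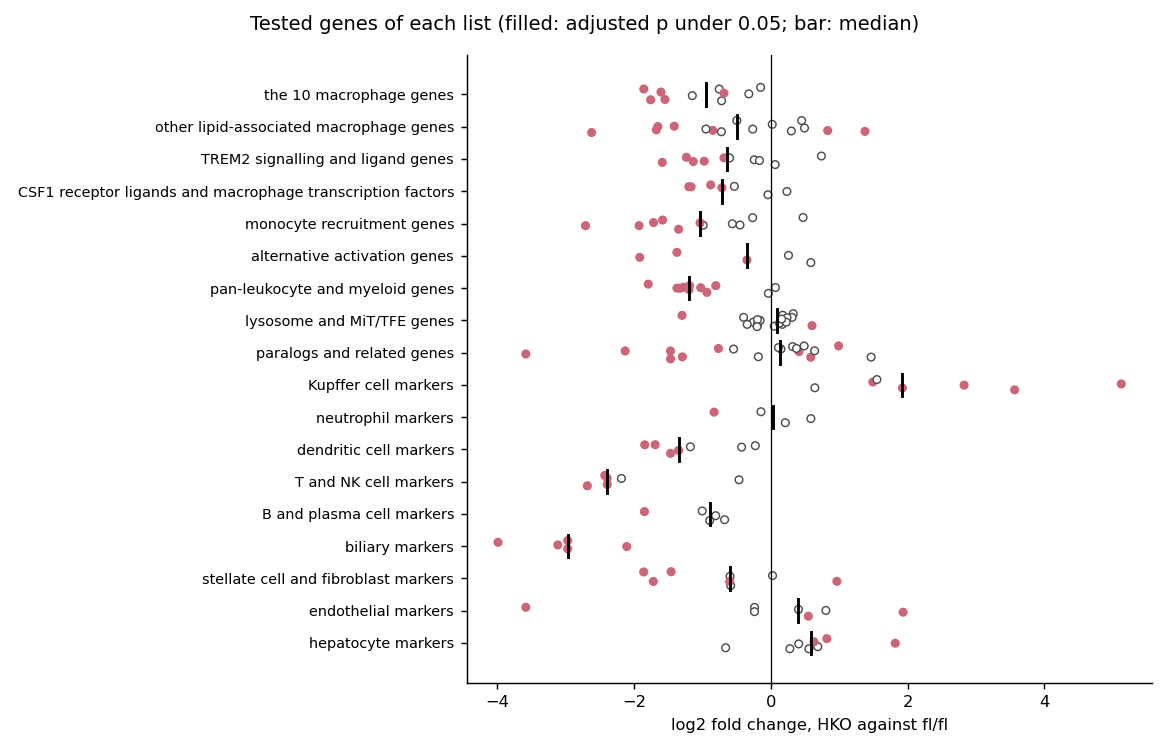
Log2 fold change, SHMT2 HKO against SHMT2 fl/fl (horizontal axis), of every tested gene in the 10 macrophage genes and in 17 further lists, filled where the adjusted p is under 0.05, with a bar at the median of each list. Medians run from -2.97 for biliary markers to 1.92 for Kupffer cell markers, with the 10 macrophage genes at -0.95.

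Of 22 paralogs and related genes of the 10, 18 could be tested, with 6 lower, 3 higher and a median log2 fold change of 0.13. Among these is *Ctss*, cathepsin S, a cysteine protease that shares the name but not the family of cathepsin D, and without it 5 of 17 were lower, 3 were higher and the median was 0.15. After *Ly6c1*, the largest falls were in *Ly6a*, the stem cell antigen Sca-1 (-2.13, adjusted p = 0.000744), and *Ctss*, a protease of antigen-presenting cells (-1.47, adjusted p = 0.00261), beside *Flt3*, a receptor of dendritic cell precursors (-1.47, adjusted p = 0.029). *Ly6e*, the most abundant, was at -1.29 (adjusted p = 0.00186). *Adgre5*, a relative of *Adgre1*, was also lower (-0.77, SE 0.16, adjusted p = 0.00987), without overlap of the genotypes. *Pmel*, the closest relative of *Gpnmb*, was at 0.513 to 0.940 CPM in SHMT2 fl/fl mice and 0.636 to 1.01 CPM in SHMT2 HKO mice (log2 fold change 0.15, adjusted p = 0.804). The higher genes were *Cd81*, *Adgre4*, a relative of *Adgre1* (0.99, SE 0.31, adjusted p = 0.0462), and *Lgals4*, a galectin of epithelia (0.58, SE 0.18, adjusted p = 0.0444). *Adgre4* was at 0.57 without TMM and 0.31 with ERCC scaling, and *Lgals4* at 0.15 and -0.15, and neither was called there. Without TMM 7 genes of the list were lower and 0 higher (median -0.29). Upper-quartile and ERCC scaling left 0 called higher, as did leaving out SHMT2 fl/fl mouse 2, SHMT2 fl/fl mouse 3 or SHMT2 HKO mouse 2, and 1 was higher without SHMT2 fl/fl mouse 1.

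Over 12235 genes with a mean of at least 1 log2 CPM, those whose log2 CPM followed *Trem2* most closely across the 6 livers were *Snx20* (Pearson r = 0.997), *Osmr*, the oncostatin M receptor (0.996), *Myo1f*, a myosin of leukocytes (0.996), *Rbpms* (0.995) and *Plau*, the urokinase plasminogen activator (0.995). These r values are a description, as the genotype difference and the libraries are common to all points, and 426 genes had an r over 0.95 with *Trem2*. *Osmr* was at 16.5, 16.2 and 20.2 CPM in SHMT2 fl/fl mice and at 4.79, 6.27 and 10.7 CPM in SHMT2 HKO mice, with the same order of SHMT2 HKO mice as *Trem2*. *Plau* was at 10.9, 9.43 and 13.3 CPM and at 3.18, 4.40 and 6.53 CPM. Within the 10 genes, the r of *Trem2* was 0.966 with *Cd63*, 0.958 with *Cd9*, 0.936 with *Adgre1*, 0.934 with *Gpnmb*, 0.914 with *Lgals3*, 0.889 with *Csf1r*, 0.809 with *Ly6c2*, 0.548 with *Ctsd* and 0.387 with *Chil3*.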

How the data were processed

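Liver RNA of 6 mice was sequenced on an Illumina HiSeq instrument in paired-end mode. According to the submitters' processing notes, Trimmomatic 0.36, STAR 2.5.2b and featureCounts of Subread 1.5.2 were used, and the authors deposited whole-number counts per gene on GRCm38, not normalized. Gene counts summed to 23090837 to 34089722 per library, and 92 ERCC spike-in entries were left out. Columns named WT were taken as SHMT2 fl/fl and those named KO as SHMT2 HKO. Genes were filtered with filterByExpr, scaled by TMM and tested by the two-sided quasi-likelihood test of edgeR 4.0.16 (R 4.3.3) with Benjamini-Hochberg adjustment over 16089 genes, which gave the adjusted p-values wherever no other tool is named. DESeq2 1.42.0 and limma-voom (limma 3.58.1) were alternatives. Ratios were tested exactly, by permuting genotype over all 10 divisions of the mice. Sharing of 50-base stretches was counted over annotated transcripts. The 10 genes and all lists were chosen with earlier results of these data known. Named are the 10 genes, *Shmt2*, in each list the most abundant gene, up to 3 called genes with the largest change and genes tied to one of the 10 (ligand, adaptor or paralog), and the 5 genes most like *Trem2*; *Ccr2*, *Mmp12*, *Capg*, *Cd68* and other names outside this rule were added after their values were seen. Of the results of this rule, 3 are not reported here. Same-numbered libraries did not deviate together (r from -0.0766 to 0.0125). Libraries of a genotype differed by more than sampling noise (chi-square per gene from 27.0 to 159). The p-values set the genotype difference against the spread between these 6 mice, which edgeR estimates partly from all genes together. In counts simulated for this comparison over 16089 genes, 169 of 200 genes changed 4-fold (84.5%) were recovered and 10.6% of calls were false. The recovered share does not apply to the 10 genes, whose largest fitted change was 3.63-fold (*Cd63*). The false share does not carry over either, since 29.0% of tested genes were called in the data and only 200 genes were changed in the simulation.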

Additional observations from a re-analysis of the deposited data

How the results depend on the processing

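In all, 15 alternatives were run. *Cd9* and *Csf1r* were called lower in each of these, and none of the 10 genes was called higher in any. The number called lower was 5, against 3 when genes of low count were kept and 3 to 8 with single mice left out. Over all tested genes, 2012 were higher and 2651 lower, against 538 and 4919 without TMM and 107 higher with ERCC scaling, which moved the median gene by -0.72. With single mice left out, 805 to 2521 genes were higher and 1621 to 3076 lower. The log2 ratio to *Csf1r* had a difference of 0.25 for *Chil3*, which ranged from -0.22 to 0.79 with single mice left out and was -0.22 without SHMT2 HKO mouse 1. That of *Adgre1*, -0.06, ranged from -0.24 to 0.0789 and was 0.0214 without SHMT2 fl/fl mouse 1, 0.00103 without SHMT2 fl/fl mouse 3 and 0.0789 without SHMT2 HKO mouse 1. The cause of these changes was not tested.

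With the replicate number as a block, 5 of the 10 genes were lower and 1397 genes were higher and 2187 lower over all tested genes. The numbers are not known to pair the mice. The block ended the calls in the alternative activation list (0 of 5 tested genes). Depth limits *Chil3*, *Ly6c2* and most lymphoid and neutrophil markers.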
